A study of Mus musculus with 12 samples.

Results

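The LY6 and IFITM genes encode small proteins of the cell membrane. 10 of them are described here across paired eosinophil fractions: Ly6a, Ly6c1, Ly6c2, Ly6e, Ly6i and Lypd6 of the LY6/uPAR family, and Ifitm1, Ifitm2, Ifitm3 and Ifitm6 of the IFITM family. They were taken by symbol, 1 row each, and make up 10 of the 39666 rows of the deposited count table. The filter on low counts left 9 of the 10 for testing and removed Ifitm6.

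The libraries came from airway eosinophils of wild-type C57BL/6 mice, aged 8 to 12 weeks, with allergic airway inflammation. All mice had been sensitized to ovalbumin (20 µg with 4 mg of alum, days 0 and 7). They were then challenged with a 1% ovalbumin mist of 40 minutes from day 16 to day 18, and lavage followed on day 19. No untreated mice are among the samples used here. Lung lavage was pooled, and from each of 6 lavages CD45+ CD11b+ Siglec-F+ cells with high side scatter and low to middle CD11c and Ly6G were sorted by the presence (TREM-1+) or absence (TREM-1-) of TREM-1, an activating receptor of myeloid cells. This gave 6 TREM-1- and 6 TREM-1+ libraries of total RNA. How many mice made up a pool, and whether different pools used different mice, is not in the labels. The p-values below for TREM-1+ against TREM-1- therefore rest on how far the difference within a lavage varied between these pools. Those from edgeR also borrow spread from all tested genes.

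The TREM-1- libraries held 16513387 to 21234053 counts each. The TREM-1+ library of lavage 4 was the shallowest, with 8626701 counts, and the deepest TREM-1+ library held 19274912. Trem1 itself ran from 18.4 to 42.1 CPM (counts scaled to a common library size with TMM factors) in TREM-1- and from 73.5 to 130.7 CPM in TREM-1+. All 8 eosinophil markers were detected, with a summed level of 3540 to 4857 CPM in TREM-1- and 3116 to 4330 CPM in TREM-1+. That sum was lower in TREM-1+ in 6 of 6 lavages, with 5 of the 8 markers called lower and 1, Prg2, higher. Of the 5, Siglecf, Il5ra and Adgre1 lost their calls when counts were scaled by library totals alone, without TMM factors. The sum rests on TMM scaling and was not taken with library totals alone. Lymphocyte transcripts set lavages 1 and 2 apart: 9 markers of T and innate lymphoid cells summed to 8.78 to 11.8 CPM in their 4 libraries and to 33.4 to 124.5 CPM in the 8 libraries of lavages 3 to 6. RNA was taken from whole fractions, so fewer cells of a type and less RNA per cell cannot be told apart.

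LY6 proteins are disulfide-rich domains that most often sit on the outer face of the cell membrane through a glycosylphosphatidylinositol (GPI) lipid anchor. Several of them serve as surface markers of leukocyte subsets, such as Ly-6C of inflammatory monocytes, Ly-6G of neutrophils and Sca-1 (the product of Ly6a) of blood stem cells and activated lymphocytes. IFITM proteins cross or dip into the membrane and restrict the fusion of enveloped viruses, IFITM1 mainly at the cell surface and IFITM2 and IFITM3 in endosomes. Many genes of both families respond to interferons, through the interferon-stimulated response element (ISRE) and the gamma-activated site (GAS).

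The sequences below show what the start regions of these genes share and where near-copies differ. RefSeq promoter windows on GRCm38.p6, from 250 bases before to 50 bases after the transcription start, matched 7 of the 10 members by symbol, with 9 windows. The searched motifs were an ISRE core, GAAANNGAA, and a GAS, TTCNNNGAA, on both strands. An ISRE core was found in 2 of the 7 members with a window, Ifitm2 and Ifitm3. Per window these were 2 of 9 (22.2%), where 8.56% of all 32851 windows held it. A GAS was found in Ifitm3 and Ifitm6, also 2 of 9 windows, and in 8.3% of all windows. Counted per gene, 10 of the 16 other interferon-induced genes with a window, described below, held the ISRE core in any of them. The first 30 transcribed bases of Ifitm3, at chr7:141010715-141010744 on the minus strand, held 2 ISRE cores, with a GAS overlapping the second (capitals mark the matches):
Ifitm3: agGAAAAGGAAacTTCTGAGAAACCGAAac
The 150 bases before the Ifitm2 start (chr7:140955962-140956111, minus strand) held the same 9 letters as the first Ifitm3 match, GAAAAGGAA, from 46 to 38 bases before the start. The 150 bases before the Ifitm1 start (chr7:140967926-140968075, plus strand) held neither motif, and they are shown because Ifitm1 is the member with the largest fold change:
Ifitm2: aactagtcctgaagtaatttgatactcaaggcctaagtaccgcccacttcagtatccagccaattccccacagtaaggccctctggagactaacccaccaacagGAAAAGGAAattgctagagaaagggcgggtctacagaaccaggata
Ifitm1: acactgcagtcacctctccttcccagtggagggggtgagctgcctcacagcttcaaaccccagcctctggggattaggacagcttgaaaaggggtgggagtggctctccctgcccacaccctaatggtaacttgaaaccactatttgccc
In Ifitm6 the GAS lay from 10 to 2 bases before the start.

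Ly6c1 and Ly6c2 are shown side by side because their transcripts are hard to tell apart. Their longest protein-coding transcripts were identical at 802 of 844 aligned bases (95%), whereas the best local alignment of their start windows was identical at 208 of 282 positions (73.8%). The 150 bases before the outermost start are at chr15:75048838-75048987 for Ly6c1 and at chr15:75111972-75112121 for Ly6c2, both on the minus strand:
Ly6c1: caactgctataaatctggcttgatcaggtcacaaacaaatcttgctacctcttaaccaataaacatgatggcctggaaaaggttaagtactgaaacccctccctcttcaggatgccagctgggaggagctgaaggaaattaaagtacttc
Ly6c2: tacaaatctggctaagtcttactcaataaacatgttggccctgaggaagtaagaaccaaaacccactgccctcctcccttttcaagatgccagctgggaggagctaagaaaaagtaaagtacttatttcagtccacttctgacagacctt
The Lypd6 window stood out in base composition. It held 71.0% G and C, against 47.3% to 53.7% in the other 8 windows of members, a median of 52.7% over all windows and an upper quartile of 61.7%. Its last 150 bases before the start (chr2:50066279-50066428, plus strand) were:
Lypd6: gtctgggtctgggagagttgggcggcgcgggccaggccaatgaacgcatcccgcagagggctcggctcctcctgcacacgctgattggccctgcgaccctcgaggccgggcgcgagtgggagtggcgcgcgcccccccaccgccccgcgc

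In all, 6 members were lower in TREM-1+ eosinophils, 1 was higher and 2 did not pass the test (edgeR's quasi-likelihood test with lavage as a block, Benjamini-Hochberg adjusted p below 0.05 over 18302 genes). The 3 tested IFITM genes and the LY6 genes Lypd6, Ly6c2 and Ly6e fell, Ly6a rose, and Ly6c1 and Ly6i were not called. Over all genes tested, 9.82% were called, 6.72% lower and 3.1% higher. The members were chosen with earlier results of these data known, so neither these shares nor the medians below test the members as a set. The median log2 fold change was -0.44 over the 9 members, -0.78 over the 3 IFITM genes and -0.23 over the 6 LY6 genes, against 0.0043 over all genes. Among the members, 5 were lower in 6 of 6 lavages, which 8.31% of all genes were, and Ly6a was higher in 6 of 6, which 5.08% were. For each of these, an exact two-sided sign-flip permutation of the 6 paired log2 differences gave p = 0.0312, its smallest possible value. The same permutation gave p = 0.0625 both for Ifitm2, which edgeR called, and for Ly6c1, which it did not. Scaled by library totals alone, the median of all genes moved to 0.13 and the calls over all genes split into 376 lower and 1880 higher, in place of 1229 and 568. Each of the 9 members kept its direction under that scaling, but Ifitm2 (adjusted p = 0.0893) and Ly6e (0.937) lost their calls, which left 4 members called lower.

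**Figure D1:**
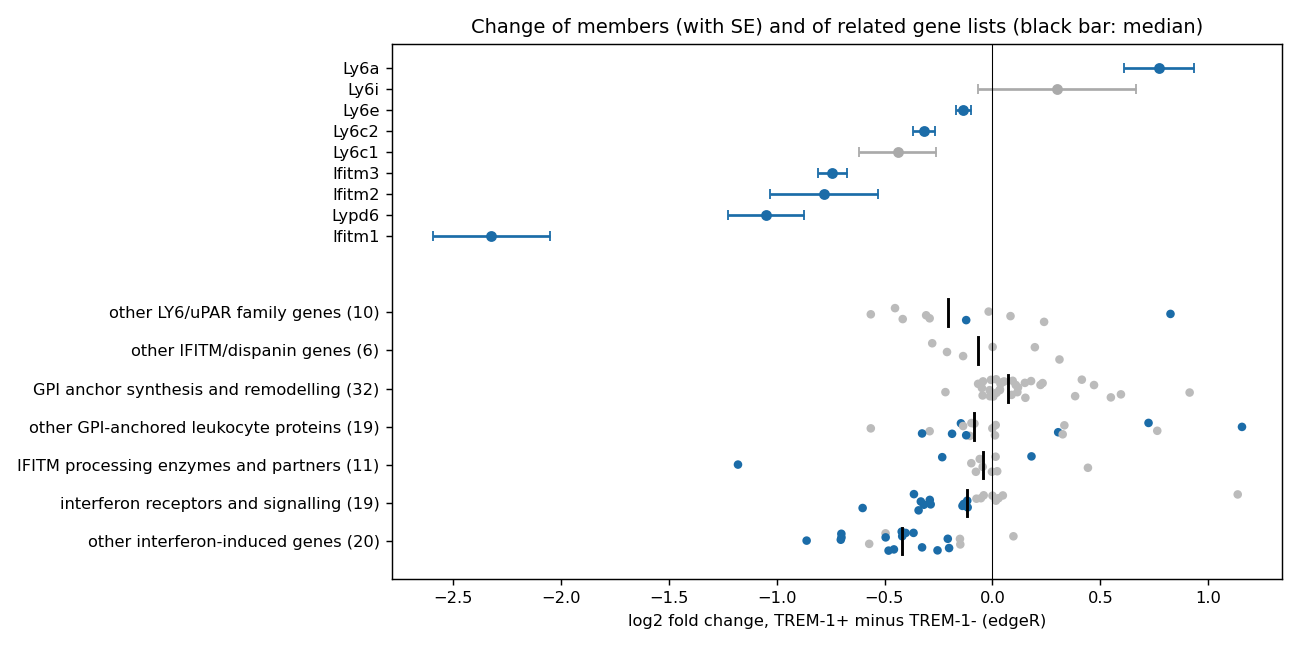
Log2 fold change, TREM-1+ minus TREM-1-, of the 9 tested members (upper rows, bars are SE) and of each tested gene in 7 related gene lists (lower rows, number of genes in brackets, black bar for the median). Blue marks an edgeR adjusted p below 0.05 and grey a gene not called; Ifitm1 lies farthest to the left at -2.32, and the interferon-induced list has its median at -0.42.

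The members differed widely in level. On the scale of CPM per kilobase of the longest protein-coding transcript, averaged over 12 libraries, Ly6c2 stood at 734 and Ly6e at 503. Ifitm3 followed at 52.6. Then came Ly6a at 6.77, Ly6c1 at 5.50, Ifitm1 at 4.19, Ifitm2 at 4.08, Lypd6 at 1.86, Ly6i at 1.30 and Ifitm6 at 0.624 CPM per kilobase. Libraries overlapped between neighbours in this order everywhere except between Ly6e and Ifitm3 and between Ifitm3 and Ly6a. The order of the first pair depends on the transcript: with the longest transcript of any kind, Ly6c2 stood at 225 and Ly6e remained at 503. By mean CPM, without regard to length, Ly6e ranked 71 and Ly6c2 ranked 181 among the 18302 tested genes, and 7 of the 10 members had a mean below 10 CPM. The low members rest on few counts, from 5 to 245 per library for Ifitm1 and from 13 to 39 for Ly6i.

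**Figure D2:**
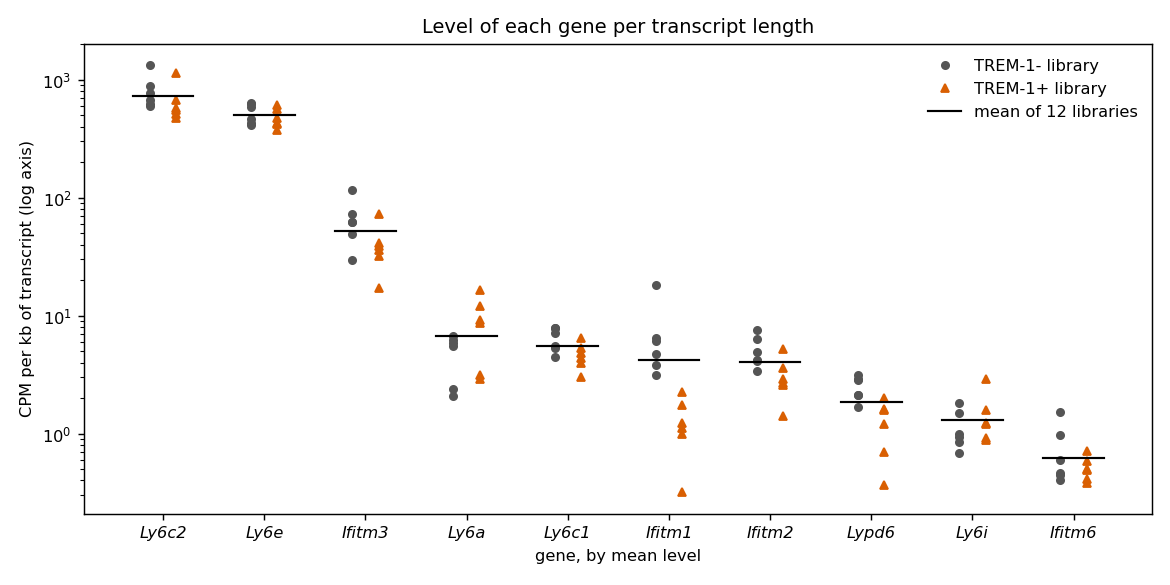
Level of each member in CPM per kilobase of transcript on a log axis, with 1 point per library (grey circles TREM-1-, orange triangles TREM-1+) and a bar at the mean of 12 libraries. Ly6c2 and Ly6e form an upper pair at 734 and 503, Ifitm3 lies between at 52.6, and the other 7 genes have means below 7.

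Ifitm1 had the largest fall of the members. In TREM-1- it stood at 2.77, 4.21, 5.33, 16.1, 5.75 and 3.39 CPM in lavages 1 to 6, and in the TREM-1+ partners at 0.975, 0.279, 0.882, 1.54, 1.97 and 1.09 CPM. Every TREM-1- library lay above every TREM-1+ library, a separation in this direction that 0.656% of tested genes showed and that no other member did. The mean went from 6.26 ± 4.96 to 1.12 ± 0.58 CPM (SD, n = 6), a log2 fold change of -2.32 ± 0.27 (SE, edgeR adjusted p = 4.17e-07), or 4.99-fold. Among the genes called lower, it had the second largest fall, and it was 1 of the 20 genes (0.109%) called lower by at least 2-fold. The pair ratio ran from 2.84 in lavage 1 to 15.1 in lavage 2, where the TREM-1+ library held 5 counts. Without lavages 3 and 4 the log2 fold change was -1.97 (edgeR adjusted p = 3.66e-05). Of the 31-base words in the longest Ifitm1 transcript, 14.7% also occur in transcripts of other genes.

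Ifitm3, the most abundant IFITM gene here, fell by a similar factor in every lavage. TREM-1- libraries ran from 20.2 through a median of 42.4 to 79.1 CPM and TREM-1+ libraries from 11.7 through 25.3 to 48.9 CPM. The groups overlapped, and both fractions were lowest in lavage 5 and highest in lavage 6. Within lavages the ratio of TREM-1- to TREM-1+ stayed between 1.53 and 1.89. The mean went from 44.6 ± 19.7 to 26.8 ± 12.3 CPM (SD, n = 6), with a log2 fold change of -0.74 ± 0.07 (SE, edgeR adjusted p = 1.77e-09). Of the 31-base words in the longest Ifitm3 transcript, 20.5% also occur in transcripts of other genes.

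Ifitm2 and Ifitm6 were scarce. Ifitm2 ran from 2.24 through 3.0 to 4.95 CPM in TREM-1- and from 0.924 through 1.84 to 3.39 CPM in TREM-1+. It was lower in 5 of 6 lavages, and lavage 4 had 3.23 and 3.39 CPM. The log2 fold change was -0.78 ± 0.25 (SE), close to that of Ifitm3, and the adjusted p was 0.0417 with edgeR. Leaving out lavage 1, 2, 3 or 5 ended the call (adjusted p = 0.193, 0.0902, 0.0965 and 0.137). So did lavages 1 and 2 alone (0.0544), lavages 3 to 6 alone (0.348) and library totals alone (0.0893). Of the 31-base words in its longest transcript, 55.5% also occur in transcripts of other genes, mainly predicted genes such as Gm45717, so its count is uncertain. Ifitm6 had 105 counts over 12 libraries, from 0.327 to 1.24 CPM in TREM-1- and from 0.308 to 0.573 CPM in TREM-1+. It was lower in 4 lavages and higher in 2.

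**Figure D3:**
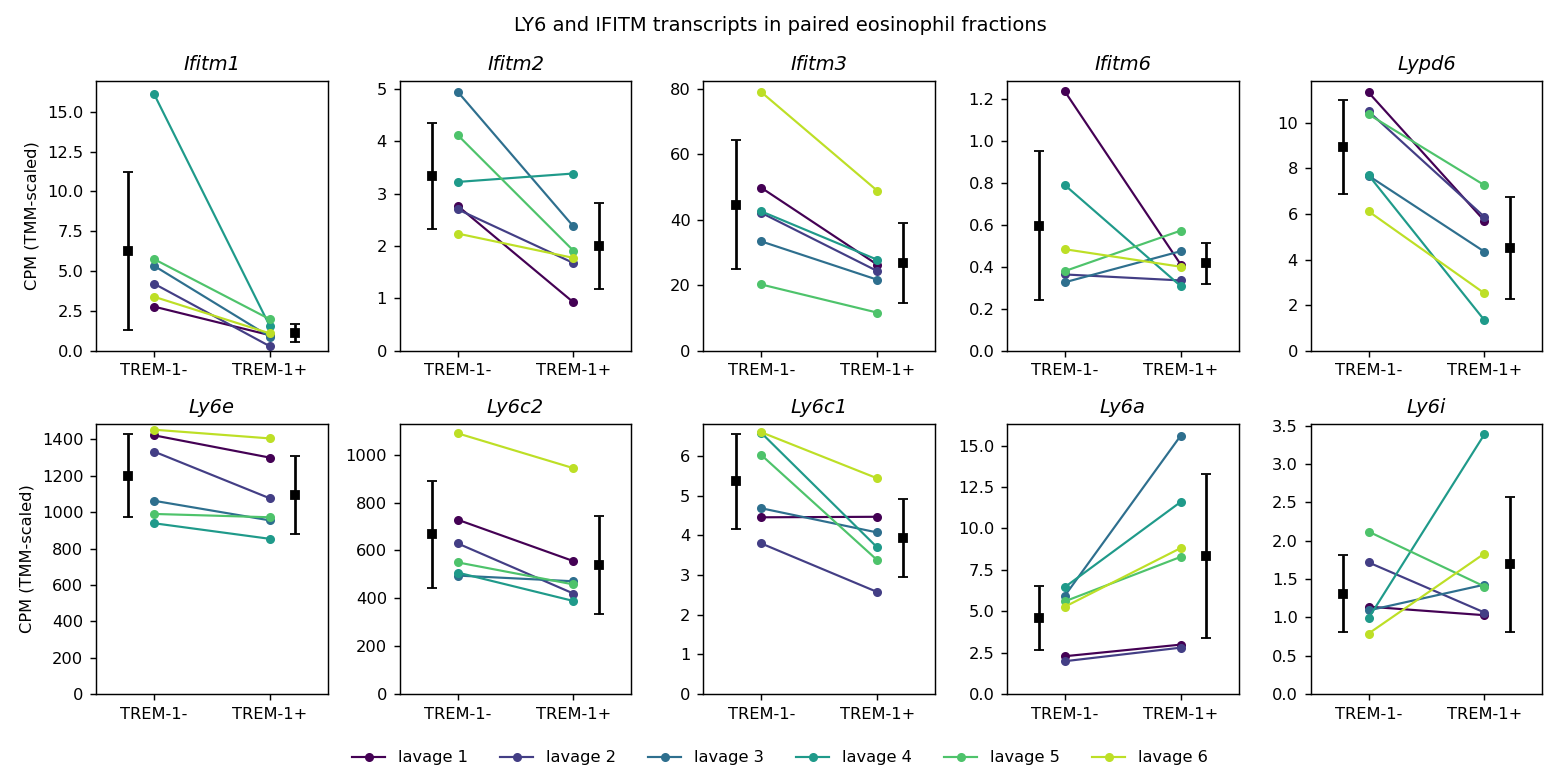
TMM-scaled CPM of the 10 members in the 6 TREM-1- and 6 TREM-1+ libraries, with lines joining the fractions of a lavage and black squares with bars for mean and SD (n = 6). Lines fall in every lavage for Ifitm1, Ifitm3, Lypd6, Ly6e and Ly6c2 and rise in every lavage for Ly6a.

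Ly6e and Ly6c2, the abundant LY6 genes, fell by small amounts. Ly6e encodes a broadly expressed LY6 protein that limits the entry of several viruses. It ran from 939 through 1198 to 1454 CPM in TREM-1- and from 853 through 1024 to 1406 CPM in TREM-1+. The groups overlapped widely, and within lavages the TREM-1- library was 1.02-fold to 1.24-fold higher. The fitted fall was -0.13 ± 0.03 on the log2 scale (SE, edgeR adjusted p = 0.00555). That call was lost in lavages 3 to 6 alone (-0.10, adjusted p = 0.183), without lavages 3 and 4 (0.0543) and with library totals alone (-0.01, adjusted p = 0.937), where the value less the shifted median was -0.14.

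Ly6c2, which encodes a form of Ly-6C, ran from 495 through 590.1 to 1090.3 CPM in TREM-1- and from 389 through 465 to 944 CPM in TREM-1+. Lavage 6 was the highest in both fractions. The fall within lavages was between 1.05-fold and 1.5-fold, which the fit put at -0.32 ± 0.05 on the log2 scale (SE, edgeR adjusted p = 4.18e-04). The 8 other listed monocyte markers were Fn1, Ccr2, Csf1r, Cd14, Cx3cr1, F13a1, Vcan and Ms4a4c. Their sum ran from 229 to 305 CPM in TREM-1- and from 236 to 397 CPM in TREM-1+. It was higher in TREM-1+ in 4 of 6 lavages. Csf1r, at a mean of 218 CPM over all libraries and not called, made up most of that sum. Fn1, from a mean of 25.9 to 69.3 CPM, and Ccr2 rose. Both lost their calls in lavages 3 to 6 alone and without lavages 3 and 4, and Ccr2 also without lavage 3 or 5. No monocyte marker was at 0 in every library, and the part of monocyte RNA in the Ly6c2 result was not tested.

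Ly6c1, its near-copy, had 946 counts over the 12 libraries, against 124568 for Ly6c2. It ran from 3.79 through 5.35 to 6.60 CPM in TREM-1- and from 2.57 through 3.88 to 5.44 CPM in TREM-1+. It was lower in 5 of 6 lavages, and in lavage 1 both fractions stood near 4.46 CPM. The difference of -0.44 ± 0.18 on the log2 scale (SE) did not pass the test (edgeR adjusted p = 0.141). Of the 31-base words in the Ly6c1 transcript, 48.0% occur in Ly6c2, so the division of reads between them is uncertain. With both rows summed the log2 fold change was -0.32 ± 0.05 (edgeR adjusted p = 3.9e-04).

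Lypd6 encodes a GPI-anchored protein that modulates Wnt signalling at the LRP6 co-receptor and nicotinic acetylcholine receptors. In TREM-1- it stood at 11.3, 10.5, 7.68, 7.70, 10.4 and 6.11 CPM in lavages 1 to 6, and in TREM-1+ at 5.70, 5.87, 4.34, 1.33, 7.26 and 2.52 CPM. TREM-1+ was the lower fraction in every lavage, and the groups overlapped only where TREM-1+ of lavage 5 stood above TREM-1- of lavage 6. The pair ratio ran from 1.43 in lavage 5 to 5.77 in lavage 4, where the TREM-1+ library held 13 counts. The mean went from 8.95 ± 2.06 to 4.5 ± 2.23 CPM (SD, n = 6). On the log2 scale the fall was -1.05 ± 0.18 (SE, edgeR adjusted p = 6.88e-05), ranking 17 among the genes called lower. Without lavages 3 and 4 it was -0.88 (adjusted p = 1.89e-04). None of its 31-base words occurs in another gene.

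Its partners gave no call. Of 11 listed LYPD6 partners, which are the Wnt receptors Lrp5, Lrp6 and Fzd8 and 8 nicotinic receptor subunits, 6 were tested. None was called by edgeR, DESeq2 or limma-voom, none had an unadjusted p below 0.05, and their median log2 fold change was 0.01. The subunits Chrna4, Chrna6 and Chrna7 had 0 counts in every library.

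Ly6a, the gene of Sca-1, was the member that rose. In TREM-1- it stood at 2.28, 1.98, 5.93, 6.45, 5.59 and 5.27 CPM in lavages 1 to 6, and in TREM-1+ at 2.98, 2.79, 15.6, 11.6, 8.28 and 8.81 CPM. Both fractions of lavages 1 and 2 lay below every library of lavages 3 to 6. TREM-1+ was 1.31-fold to 2.63-fold higher in 6 of 6 lavages, with the largest ratio in lavage 3. The mean went from 4.58 ± 1.95 to 8.34 ± 4.96 CPM (SD, n = 6), with a log2 fold change of 0.77 ± 0.16 (SE, edgeR adjusted p = 0.00108). In lavages 3 to 6 alone it was 0.89 (adjusted p = 0.00193). The call was lost in lavages 1 and 2 alone, with only 2 pairs (0.46, edgeR adjusted p = 0.526), and without lavages 3 and 4 (0.56, edgeR adjusted p = 0.0847). Of the 31-base words in the Ly6a transcript, 22.1% also occur in other genes, 10.6% in Ly6c1. The far more abundant Ly6c2 shares 5.93% of its own words with Ly6a, so the Ly6a count is uncertain.

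Markers of T and innate lymphoid cells moved with Ly6a. Of the 9 listed markers in the table, 7 rose and none fell. Cd3g (log2 fold change 1.56), Cd3e (1.31), Cd4 (1.19), Thy1 (1.16) and Lck (1.06) rose most, of which Cd3g and Cd4 had means below 5 CPM and are named after their values were seen. Of the 7, Cd3g lost its call without lavage 3 and Gata3 without lavage 3, 4, 5 or 6. The summed level of all 9 was 9.60, 8.78, 52.7, 64.1, 37.8 and 33.4 CPM in TREM-1- of lavages 1 to 6 and 11.8, 10.3, 124.5, 103.3, 72.4 and 58.2 CPM in TREM-1+. None of the 9 was at 0 in every library. Lavages 1 and 2 were lowest and TREM-1+ of lavage 3 was highest for both the markers and Ly6a. The 6 NK cell markers summed to 0.052 to 12.3 CPM in TREM-1- and 0.667 to 23.2 CPM in TREM-1+, and the sum was also higher in TREM-1+ in 6 of 6 lavages. Of the 7 markers of endothelial cells, which carry Sca-1 as well, Cdh5 and Emcn had 0 counts in every library. Mean CPM in TREM-1- and then TREM-1+ was 0.279 and 0.759 for Vwf, 0.00866 and 0.167 for Tek, 0.152 and 0.0594 for Kdr, and 0.0342 in both for Cldn5. Pecam1, which leukocytes also express, averaged 215 CPM over all libraries and set the sum of the 7, 190.1 to 261 CPM in TREM-1- and 179 to 238 CPM in TREM-1+. Alveolar macrophage markers also summed higher in TREM-1+ in 6 of 6 lavages, from 368 to 824 CPM in TREM-1- and from 593 to 1094 CPM in TREM-1+, with 4 of 10 called higher and none lower. Of the 4, Ear6 lost its call without lavage 1, 3, 4, 5 or 6. Dendritic cell markers did so too, from 75.7 to 93.1 CPM and from 110.1 to 135 CPM, with 2 of 8 called higher and none lower. Car4, Chil3 and Ear6 made up most of the alveolar macrophage sum, with means over all libraries of 260, 228 and 128 CPM, and Chil3 was not called. Marco had 16 counts in all and Fabp4 24, with a lower Fabp4 mean in TREM-1+ (0.0594 CPM) than in TREM-1- (0.167 CPM). Itgae, at 70.2 CPM, made up most of the dendritic cell sum, whereas Xcr1, Clec9a, Flt3 and Cd209a averaged 2.55, 1.69, 1.37 and 0.168 CPM. No marker of these last 2 lists was at 0 in every library, but several were near it. The part of RNA from any of these cell types in the Ly6a result was not tested.

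**Figure D4:**
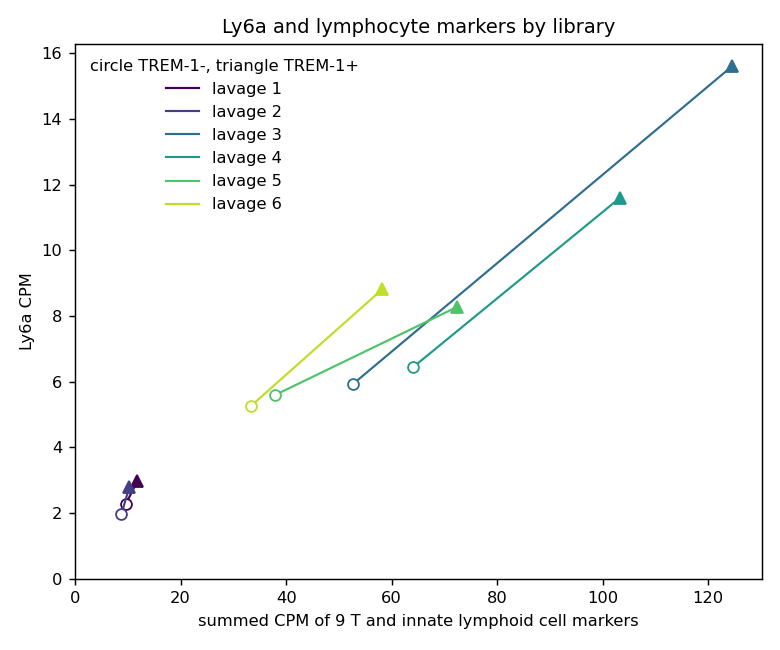
Ly6a level against the summed CPM of 9 T and innate lymphoid cell markers, with open circles for TREM-1-, triangles for TREM-1+ and a line joining each lavage. Lavages 1 and 2 sit below 12 CPM of markers and below 3 CPM of Ly6a, and every line runs up and to the right.

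Ly6i, which shares sequence with Ly6a, was not called. It ran from 0.787 through 1.11 to 2.12 CPM in TREM-1- and from 1.03 through 1.41 to 3.39 CPM in TREM-1+. It was higher in 3 lavages and lower in the other 3, with a log2 fold change of 0.30 ± 0.37 (SE, edgeR adjusted p = 0.755). Of its 31-base words, 9.41% occur in Ly6a.

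Members of a family were also compared with each other within lavages. In each of 7 pairs of genes the paired log2 changes were subtracted and tested by an exact two-sided sign-flip permutation over the 6 lavages, where the smallest possible p is 0.0312. Of the 7, 3 reached it and none passed after adjustment over the 7 pairs. With that smallest p, a pair that differed in 1 direction in 6 of 6 lavages could not pass the adjustment on its own. The adjusted values therefore cannot decide whether single pairs differ. Ly6a changed by 0.87 ± 0.37 more than Ly6e (SD over 6 lavages, log2 scale) and by 1.05 ± 0.26 more than Ly6c2, above 0 in 6 of 6 lavages both times (exact permutation p = 0.0312, adjusted p = 0.0729). Ifitm1 changed by -1.61 ± 1.04 relative to Ifitm3, below 0 in 6 of 6 (exact permutation p = 0.0312, adjusted p = 0.0729). Relative to Ifitm2 it changed by -1.58 ± 1.38, below 0 in 5 of 6 (exact permutation p = 0.0625, adjusted p = 0.1094). The difference between Ifitm2 and Ifitm3 was -0.03 ± 0.50, between Ly6c1 and Ly6c2 it was -0.13 ± 0.34, and between Ly6a and Ly6i it was 0.42 ± 0.87, with exact permutation p-values of 0.9375, 0.3125 and 0.2812.

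Differences between lavages were also found for 6 members, beyond the spread within them (edgeR F test over the 5 lavage terms, adjusted p below 0.05), and for 36.9% of all genes. They were Ifitm3 (adjusted p = 1.18e-12), Ly6e (2.57e-11), Ly6c2 (9.94e-08), Ly6a (4.40e-07), Ifitm1 (0.00246) and Lypd6 (0.00604). The highest lavage mean was 4.01-fold the lowest for Ifitm3, 4.52-fold for Ly6a and 4.72-fold for Ifitm1. It was 2.27-fold for Ly6c2 and 1.6-fold for Ly6e. The order of lavages was not shared: lavage 6 led for Ifitm3, Ly6c2 and Ly6e, lavage 3 for Ly6a and lavage 4 for Ifitm1.

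Each member was set beside the genes with the nearest profile, measured as the root mean square distance between centred log2 CPM values over the 12 libraries, among 10967 genes of at least 5 CPM. These profiles share the libraries and lavages, and no test was made. Ifitm3 lay nearest to Ifi47 (0.11), Cmpk2 (0.14) and Rsad2 (0.16), which are interferon-induced genes, against a spread of its own of 0.70. Ly6c2 lay nearest to Ifi27l2a (0.14), also interferon-induced, then Tmem140 and Ogfrl1. Ly6a lay nearest to Tcf7 (0.17), a T cell transcription factor, then Ctsw (0.29), a protease of cytotoxic lymphocytes, and the interferon-inducible Ifi203 (0.29). Lypd6, whose own spread was 0.85, lay nearest to Ear1 (0.38), an eosinophil-associated ribonuclease. Slpi (0.46), a protease inhibitor, and Prg3 (0.51), a homologue of major basic protein, came next. For Ifitm1, whose own spread was 1.43, Tgm2 (0.79), a transglutaminase gene, and Arhgef10l (0.84) were among the nearest. Ly6e was nearest to Serinc3, Grn and Rnf144b, Ifitm2 to Naaladl1, Ctcfl and Ptprv, Ly6c1 to Gm26871, 9330159M07Rik and Hook2, and Ly6i to Cdnf, Gm11946 and Gm38815. The nearest gene stood at 0.084 for Ly6e, 0.33 for Ifitm2, 0.20 for Ly6c1 and 0.33 for Ly6i. The own spreads of these members were 0.26, 0.61, 0.39 and 0.54.

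**Figure D5:**
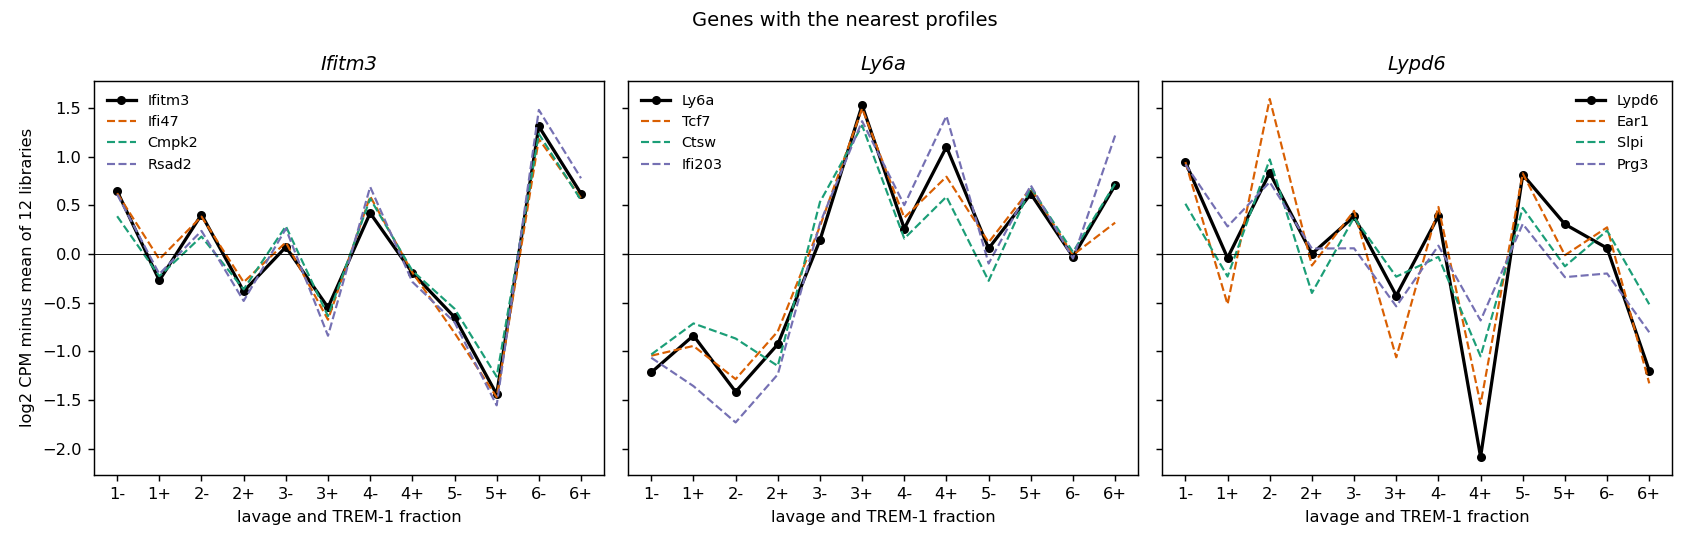
Log2 CPM of Ifitm3, Ly6a and Lypd6 (black) and of the 3 genes nearest to each (dashed), as the difference from each gene's own mean, in the 12 libraries in order of lavage (number) and fraction (- or +). The 3 genes beside Ifitm3 lie at root mean square distances of 0.11 to 0.16 from it, and the Ly6a lines step up from lavages 1 and 2 to lavages 3 to 6.

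Other genes of the LY6/uPAR family were called in both directions. Of 41 listed genes 10 were tested, 1 rose and 1 fell, where 3.1% of all tested genes rose and 6.72% fell. The median log2 fold change of the 10 was -0.21, and 14 of the 41 had 0 counts in every library. Ly6g, the gene of the neutrophil antigen Ly-6G that the sort held to low and middle levels, rose in 6 of 6 lavages. It ran from 1.12 to 5.20 CPM in TREM-1- and from 3.95 to 8.41 CPM in TREM-1+, with a log2 fold change of 0.82 ± 0.20 (SE, edgeR adjusted p = 0.00454). Its mean of 4.63 CPM lay under the 5 CPM set for naming list genes, so it was chosen after its values were seen. The call was lost in lavages 1 and 2 alone. Of 12 listed neutrophil markers, Ly6g among them, 6 rose: S100a8 (log2 fold change 2.35), S100a9 (1.45), Ltf (0.93), Ngp (0.89), Ly6g and Cxcr2 (0.22). Retnlg fell (-0.38), from a mean of 1603 to 1244 CPM, and made up most of the summed level, which was 1540 to 2291 CPM in TREM-1- and 1321 to 2216 CPM in TREM-1+ and lower in 5 of 6 lavages. Without Retnlg, a split made after its values were seen, the other 11 summed to 289.7 to 522 CPM in TREM-1- and 412 to 657 CPM in TREM-1+. That sum was higher in TREM-1+ in 6 of 6 lavages. It includes Ly6g, and Cxcr2, at a mean of 356 CPM over all libraries, made up most of it. Elane had 0 counts in every library, and the part of neutrophil RNA in the Ly6g result was not tested. Plaur, the urokinase receptor gene, fell by 0.12 on the log2 scale (edgeR adjusted p = 0.0155), a call lost without lavage 3, 4 or 5 and with library totals alone. Among 10 listed relatives of the IFITM genes 6 were tested. None was called by edgeR, DESeq2 or limma-voom, none had an unadjusted p below 0.05, and their median was -0.07.

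Genes that build and trim the GPI anchor showed no call, whereas transcripts of proteins that carry it moved in both directions. All 32 anchor genes were tested, with a median log2 fold change of 0.07. Neither edgeR nor DESeq2 called any of them, limma-voom called 1 higher, 6 were higher at an unadjusted p below 0.05 with edgeR, and library totals alone gave 7 higher. Of 26 other GPI-anchored leukocyte proteins 19 were tested, 3 rose and 4 fell, with a median of -0.08. Thy1 (log2 fold change 1.16), Nt5e (0.72) and Cd55 (0.30) rose. Bst2 (-0.33), Cd24a (-0.19) and Cd52 (-0.15) fell, besides Plaur. Cd52 lost its call without lavage 1, 2, 3 or 4, and none of the 4 falls was called with library totals alone. Thy1 also stands on the list of T and innate lymphoid cell markers.

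Among 12 enzymes and partners that act on IFITM proteins, 11 were tested, 1 rose and 2 fell. The largest change was in Nedd4, the ubiquitin ligase that marks IFITM3 for degradation. It ran from 9.69 to 30.1 CPM in TREM-1- and from 5.63 to 12.7 CPM in TREM-1+, was lower in 6 of 6 lavages, and had a log2 fold change of -1.18 ± 0.12 (SE, edgeR adjusted p = 1.54e-08). The palmitoyltransferase gene Zdhhc20 fell by 0.23 on the log2 scale, a call lost without lavage 1, 2, 4 or 6. Zdhhc3, of the same enzyme family, rose by 0.18. The median of the 11 was -0.05.

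Interferon-induced genes fell in TREM-1+ beside Ifitm3. Of 20 listed genes, none of them a member, all were tested. There 15 were lower and none higher, with a median log2 fold change of -0.42, where 6.72% of all tested genes were lower. With library totals alone 11 of the list were called lower. The list was chosen with earlier results of these data known, so these shares do not serve as a test. Rsad2 (-0.86), Isg15 (-0.70) and Cmpk2 (-0.70) led, and Xaf1 lost its call without lavage 1, 4 or 6. Rsad2, which encodes viperin, ran by lavage much as Ifitm3 did: TREM-1- libraries held 559, 431, 438, 590.2, 225 and 1022 CPM and TREM-1+ libraries 317, 262, 204, 299.9, 124 and 628 CPM. Of 19 tested genes for interferon receptors and signalling, 11 were lower and none higher, with a median of -0.12. Usp18 (-0.60), an inhibitor of interferon receptor signalling, Stat2 (-0.36) and Irf7 (-0.34), both transcription factors of the response, fell most. With library totals alone 7 of these 11 falls were called. Irf2, Irf9 and Jak2 were near the threshold and lost their calls without lavage 1, 2 or 4. Of 20 listed interferon genes 16 had 0 counts in every library, Ifnb1 among them. Only 1 was tested, and it was not called by edgeR, DESeq2 or limma-voom, nor at an unadjusted p below 0.05.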

How the data were processed

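RNA from 6 TREM-1- and 6 TREM-1+ eosinophil fractions was sequenced as paired reads of 100 bases with a stranded total RNA kit that depletes ribosomal RNA, per the labels' protocols. The authors deposited estimated counts per gene, as whole numbers, for 39666 genes. Per the submitters' processing notes, kallisto (0.45.0), edgeR (3.42.4), R (4.3.0) and the build GRCm39 were used, in roles that are not stated. The annotation and the strand setting are not given in the sources used here. The authors also deposited log2 CPM values for 17934 genes; these hold the 9 tested members, and values recomputed from the counts lay within 0.0142 of them.

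From the counts, edgeR 4.0.16 (R 4.3.3) fitted all 12 libraries with TMM factors, filterByExpr (minimum count 10, total 15), robust quasi-likelihood dispersions, the fraction and the lavage as a block. The 18302 genes that passed were tested together with Benjamini-Hochberg adjustment at 0.05, and standard errors were derived from each gene's F statistic. Log2 CPM values used a prior count of 1. The pairing comes from the submitters' design text, and deviations from the group means correlated within each lavage at 0.49, 0.50, 0.13, 0.37, 0.25 and 0.24. The fit was tested on simulated data. Alternatives were library totals, DESeq2 1.42.0, limma-voom 3.58.1, no filter, no block, subsets of lavages and other prior counts.

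Levels per kilobase and the 31-base words used GENCODE vM21 transcripts and promoter windows used RefSeq on GRCm38.p6, both older builds than that of the counts. Coordinates are given only for the start regions shown, and they are on GRCm38.p6. The longest protein-coding transcript gave the length, in place of the longest transcript first planned. All members are named; from each list, the called genes of at least 5 CPM with the largest changes, up to 3 each way; and the 3 genes nearest to each member, of which 1 is not reported here. The members and lists were chosen with earlier results of these data known.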

Additional observations from a re-analysis of the deposited data

Results flagged for a closer look

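In 3 of 20 groups of 6 libraries (10 genes in each fraction) the highest library stood farther from the next than Dixon's 95% critical value for 6 values allows. None of the 10 sets of 6 paired log2 differences held such a value. Chance alone flags about 1 in 20 groups. Ly6c2 in TREM-1+ of lavage 6 stood at 944 CPM against 556 CPM in the next library (0.700 of the range), and the TREM-1- library of that lavage was also the highest of its group at 1090.3 CPM. Ifitm1 in TREM-1- of lavage 4 stood at 16.1 CPM against 5.75 CPM (0.777 of the range). Ly6i in TREM-1+ of lavage 4, the library with the lowest total, stood at 3.39 CPM against 1.83 CPM (0.659 of the range), which rests on 33 counts.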

How the results depend on the processing

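Over 14 alternatives, 125 values were obtained for the 9 tested members, DESeq2 giving no adjusted p for Ly6i. Of these, 105 kept both their direction and their side of the threshold, 18 kept their direction and lost the call, and 2 reversed. Ifitm1 was called in all 14, with log2 fold changes from -2.52 to -1.97. Ifitm3, Lypd6 and Ly6c2 lost their calls in 1 alternative each, the fit without the replicate block. In that unpaired fit by edgeR 83 genes were called in place of 1797, 1 member was called lower in place of 6, 0 were called higher (Ly6a, adjusted p = 0.772), and 0 genes of the related lists were called in place of 36. At an unadjusted p below 0.05 it held 1304 genes, 3 members and 12 list genes. Ly6c1 and Ly6c2 summed gave -0.31 (adjusted p = 0.9212). The cause was not tested. In lavages 3 to 6 alone 1168 genes were called, against 1567 in lavages 1 and 2 alone, and the cause was not tested. With only 2 pairs, the fit of lavages 1 and 2 leaned heavily on spread borrowed across genes. Its counts and calls therefore compare poorly with those of the larger sets. In lavages 1 and 2 alone, and without lavages 3 and 4, 0 members were called higher (Ly6a, adjusted p = 0.526 and 0.0847), and Ly6i, never called, reversed to -0.41 and -0.087. The difference between Ifitm2 and Ifitm3 turned to 0.042 with a prior count of 5. Leaving out each lavage in turn gave 1421 to 1588 genes called, 5 to 6 members lower and 29 to 36 list genes called. Members with few counts, such as Ly6i and Ifitm6, limit what could be detected at this depth.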
